A study of Mus musculus with 16 samples.

Results

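The genes described here are the 5 NF-κB subunit genes of the mouse, Nfkb1, Nfkb2, Rel, Rela and Relb, and 5 genes whose products bind or restrain NF-κB, Nfkbia, Nfkbie, Nfkbiz, Tnfaip3 and Bcl3. In the figures the latter 5 are labelled inhibitors, as a name of the group and not as a statement on each product. They were chosen by symbol, or by Ensembl identifier where a file held no symbols, and all 10 were found in each of the 3 sets of deposited values, out of 38926, 38926 and 21603 genes. All 10 also passed the filter on low values (1 FPKM or more on average over the libraries compared) in every comparison. FPKM is the number of sequenced fragments per kilobase of gene, scaled to the size of the library, so levels of different genes can be set side by side.

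RNA sequencing was carried out on endothelial cells (ECs) sorted from long bones of C57BL/6 mice, and the 16 libraries form 3 comparisons that share no control library. The first set 3 libraries of marrow ECs (bmECs) against 3 of metaphyseal ECs (mpECs), both labelled wildtype and, by the study's methods, sorted at 3 weeks of age from mice that carry a Cdh5 reporter transgene with a membrane and a nuclear fluorescent protein. The second set 3 libraries labelled Yap1/Taz iΔEC (Yap1flx/flx; Wwtr1flx/flx with Cdh5CreERT2 positive, postnatal day 21) against 3 control libraries of the same floxed genotype that were Cdh5CreERT2 negative and of the same age. The third set 2 Lats2 iΔEC libraries (Lats2flx/flx; Cdh5CreERT2 positive) against 2 Lats2flx/flx, Cdh5CreERT2 negative control libraries. The Cdh5 promoter drives the tamoxifen-dependent Cre in ECs of all organs, the controls were littermates, and per the methods tamoxifen was given from postnatal day 1 to 3 or from day 6 to 8. The labels give no age for the wildtype and the Lats2 libraries, and the methods give 3 weeks for both. The methods also state that animals were combined irrespective of sex. Wwtr1 is the gene for TAZ, and YAP1 and TAZ are transcriptional co-activators that the kinase LATS2 phosphorylates.

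NF-κB proteins are dimers of Rel family subunits that rest in the cytoplasm with inhibitors of the IκB family. Signals from TNF, interleukin and Toll-like receptors lead to degradation of the inhibitor, the dimer enters the nucleus, and among the genes it switches on are those of its own inhibitors. In ECs the pathway is known for inducing adhesion molecules and chemokines that recruit leukocytes.

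Several genes of the family are known targets of NF-κB dimers. The stretches of promoter that carry letters of the κB consensus are therefore shown for the members that have them, as RefSeq sequence of GRCm38.p6, read 5′ to 3′ on the strand of the gene. RefSeq promoters were matched for 7 of the 10 genes, not for Nfkb1, Relb and Nfkbiz. Each was searched over the 250 bases before the start site for the κB consensus on both strands, where a palindromic or overlapping match on the other strand was merged with the first. Capitals mark the match, and for Nfkb2 and Tnfaip3, which have several start sites in the table, the start site with the nearest match is shown.
Nfkbia, chr12:55492648-55492707, minus strand: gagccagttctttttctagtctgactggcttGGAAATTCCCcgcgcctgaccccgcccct
Nfkbie, chr17:45555569-45555628, plus strand: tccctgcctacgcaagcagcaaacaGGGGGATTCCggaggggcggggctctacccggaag
Nfkb2, chr19:46304677-46304736, plus strand: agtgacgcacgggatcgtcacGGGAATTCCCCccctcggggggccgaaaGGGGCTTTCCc
Rel, chr11:23771026-23771085, minus strand: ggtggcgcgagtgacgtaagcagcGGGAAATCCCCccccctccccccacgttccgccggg
Tnfaip3, chr10:19015411-19015470, minus strand: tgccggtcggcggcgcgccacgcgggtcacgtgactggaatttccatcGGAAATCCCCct
The match of Nfkbia lies 29 bases before the start site and that of Nfkbie 106 bases before it. The other Tnfaip3 start site held no match, and the one shown held a second match 125 bases before it. Of all 32851 promoters in the same table, 3.9% held a match in a window of this length, counted per promoter and not per gene. The windows of Rela and Bcl3 do not hold these letters. For Bcl3, the member with an adjusted p under 0.05 in all 3 comparisons, the whole window is shown.
Bcl3, chr7:19822756-19823005, minus strand: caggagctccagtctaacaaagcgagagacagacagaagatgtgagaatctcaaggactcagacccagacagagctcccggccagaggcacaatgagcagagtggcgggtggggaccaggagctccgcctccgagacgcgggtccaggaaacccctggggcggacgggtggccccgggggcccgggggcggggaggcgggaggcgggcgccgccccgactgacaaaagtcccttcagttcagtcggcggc

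The recovered depth was 11153892 to 14795369 reads on genes per library for bmECs and mpECs, 4885990 to 7166552 for the Yap1/Taz set and 4738327 to 7077854 for the Lats2 set. The EC marker Cdh5 was at 101.3 to 276.5 FPKM over the libraries, and Ptprc, the pan-leukocyte antigen, was at 12.1 to 64.4 FPKM in the first 2 sets and at 0.795 to 6.39 FPKM in the Lats2 set. In such bulk samples, fewer cells of a type and less RNA per cell cannot be told apart. In the deposited values the targeted genes did not follow the Yap1/Taz labels, since Yap1 was at 1.07, 1.62 and 0.995 FPKM in controls and at 1.43, 1.03 and 0.989 FPKM in the libraries labelled Yap1/Taz iΔEC. Yap1 was near the filter of 1 FPKM there, with 47 to 103 recovered reads per library. Wwtr1 was higher in the libraries labelled Yap1/Taz iΔEC (15.3 to 19.6 FPKM) than in controls (9.88 to 10.3 FPKM; log2 fold change 0.78, limma adjusted p = 0.0272). It was also higher in Lats2 iΔEC libraries (83.3 and 92.5 FPKM) than in their controls (53.8 and 58.9 FPKM, log2 fold change 0.63, limma adjusted p = 0.0257). Lats2 was at 23.4 and 24.0 FPKM in its controls and at 19.2 and 19.2 FPKM in Lats2 iΔEC libraries (log2 fold change -0.29, adjusted p = 0.125). A gene on the same strand, Gm49361, overlaps 42.4% of the exon bases of Lats2. In other measurements, the study reports lower Yap1 and Wwtr1 transcripts by quantitative PCR and weaker Yap1 immunostaining in Yap1/Taz iΔEC bone. It also reports lower Lats2 transcripts in ECs of Lats2 iΔEC bone. Whether the FPKM values lie over the deleted exons is not known, and each direction below rests on the labels.

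**Figure D1:**
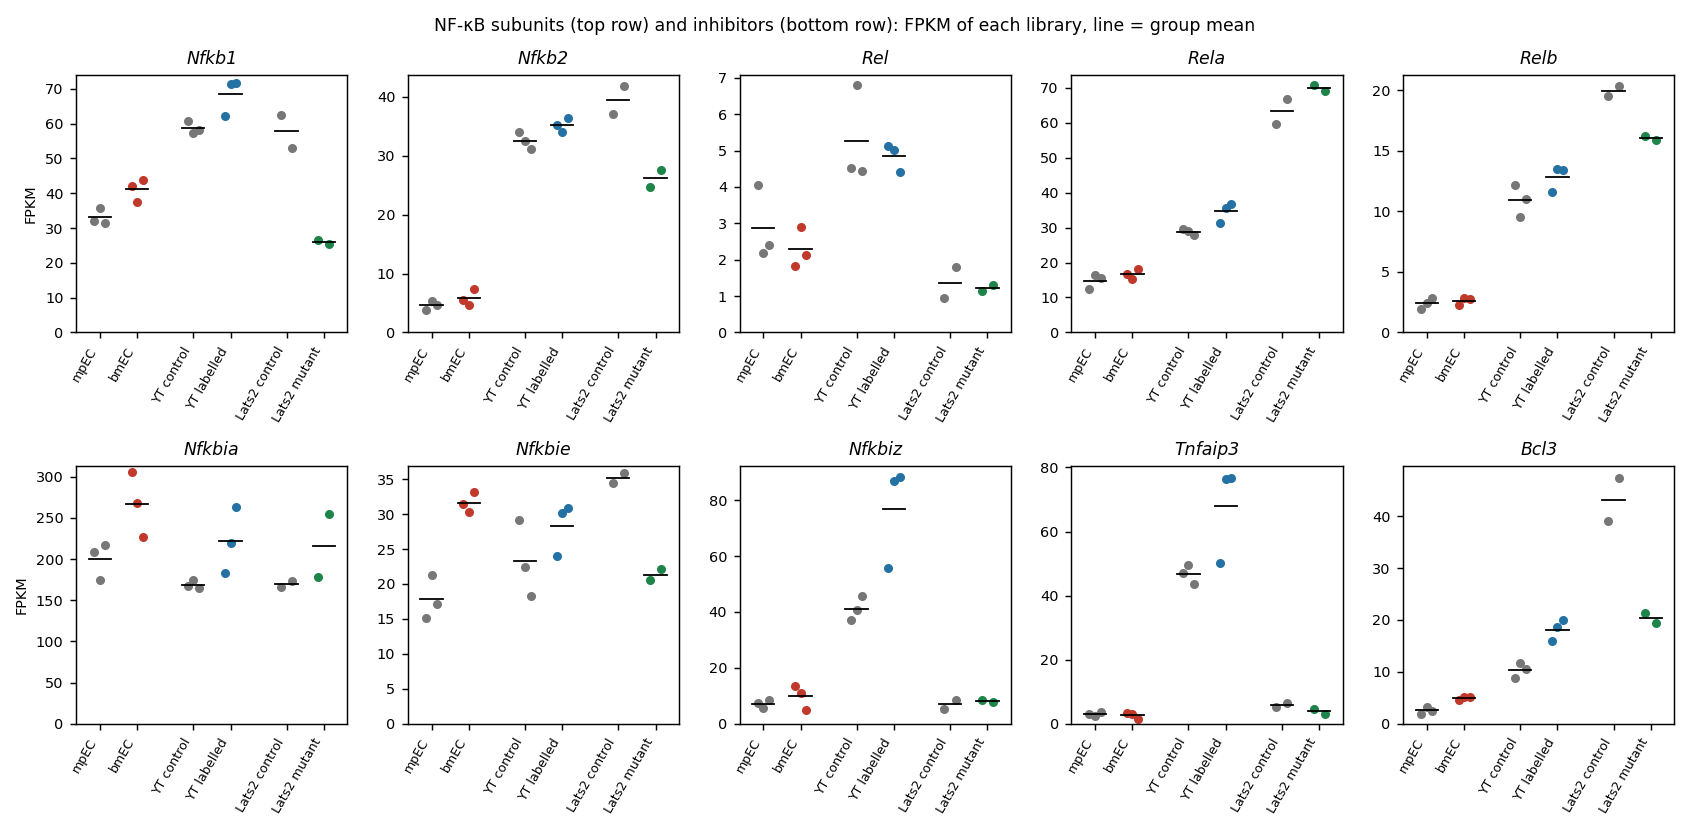
FPKM (y axis, linear and from 0, a scale of its own in each panel) of each NF-κB subunit gene (top row) and inhibitor gene (bottom row) in all 16 libraries, with a point per library and a line at the group mean; YT stands for the Yap1/Taz set. Bcl3 is higher in bmEC than in mpEC, higher in the libraries labelled Yap1/Taz iΔEC than in their controls, and lower in Lats2 iΔEC libraries than in theirs, without overlap in any of the 3.

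Nfkbia had the highest level of the 10 genes in all 6 groups, and the gene after it differed between groups. It encodes IκBα, the inhibitor that is degraded and remade within an NF-κB response, and its means lay between 168.5 ± 4.86 FPKM (SD, n = 3; Yap1/Taz controls) and 267.1 ± 39.5 FPKM (SD, n = 3; bmECs). No library of any other member reached its lowest library in the same group. Nfkb1, the gene of the precursor from which the most common DNA-binding partner of RelA is cut, came next in mpECs, bmECs and the Yap1/Taz controls, while Nfkbiz did so in the libraries labelled Yap1/Taz iΔEC, with libraries that overlapped those of Nfkb1, and Rela in both Lats2 groups, in the controls with libraries that overlapped those of Nfkb1. Rel, which encodes c-Rel, a subunit best known from lymphocytes, was last in 5 of the 6 groups, with means of 1.21 to 5.25 FPKM. Its libraries overlapped those of Tnfaip3 and Relb in both mpECs and bmECs, and those of Bcl3 and Nfkb2 in mpECs. Levels from different sets were normalized separately and were not tested against each other. Side by side, Tnfaip3 was at 46.8 ± 3.01 FPKM (SD, n = 3) in the Yap1/Taz controls, at 3.10 ± 0.562 FPKM (SD, n = 3) in mpECs and at 5.88 ± 0.997 FPKM (SD, n = 2) in the Lats2 controls. Bcl3 had another order, with 2.56 ± 0.663 FPKM (SD, n = 3) in mpECs, 10.3 ± 1.46 FPKM (SD, n = 3) in the Yap1/Taz controls and 43.2 ± 5.97 FPKM (SD, n = 2) in the Lats2 controls. The immediate early genes described below summed to 1038 to 1502 FPKM in mpECs and 2653 to 2848 FPKM in the Yap1/Taz controls. In the Lats2 controls they summed to 855.4 and 1083 FPKM. The 9 EC markers used below summed to 1128 to 1476 FPKM in mpECs and 495.5 to 530.9 FPKM in the Yap1/Taz controls. In the Lats2 controls these markers summed to 2381 and 2522 FPKM. The 6 pan-leukocyte markers used below summed to 613.4 to 947.6 FPKM in mpECs and 796.6 to 925.5 FPKM in the Yap1/Taz controls. Their sums in the Lats2 controls were 223.9 and 183.3 FPKM. The part of these sums in the levels of Tnfaip3 and Bcl3 was not tested.

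The comparison of bmECs with mpECs asks how ECs of the marrow differ from those near the growth plate. In bmECs, 2 members rose, Nfkbie and Bcl3, and no member fell. Log2 fold changes were above 0 for 8 of the 10 genes, with a median of 0.29 beside -0.00068 over all 11422 genes tested. The 2 called genes stand beside 23.5% of all genes tested that had an adjusted p under 0.05 (13% higher and 10.5% lower), so 2 of 10 is close to the share over all genes. With limma-voom on recovered reads the split over all genes changed from 1481 higher and 1201 lower to 895 higher and 2400 lower, while the same 2 members were called.

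Nfkbie (chr17:45555703-45563169, plus strand), which encodes the cytoplasmic inhibitor IκBε, was at 15.1, 21.2 and 17.1 FPKM in the mpEC libraries and at 31.5, 30.3 and 33.2 FPKM in the bmEC libraries. Every bmEC library was above every mpEC library, and the 3 bmEC libraries lay close together. The log2 fold change was 0.81 ± 0.12 (SE, limma adjusted p = 0.00276). Bcl3 (chr7:19808462-19822770, minus strand), which encodes a nuclear IκB-like protein that binds subunit homodimers on DNA, was at 1.95, 3.27 and 2.44 FPKM in mpECs and at 4.65, 5.11 and 5.09 FPKM in bmECs. The groups did not overlap here either, and the log2 fold change was 0.76 ± 0.15 (SE, limma adjusted p = 0.00884).

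Nfkb1 (chr3:135584655-135691547, minus strand) and Nfkbia (chr12:55489410-55492647, minus strand) were above every mpEC library in every bmEC library but missed the threshold. Nfkb1 was at 32.1, 35.9 and 31.6 FPKM in mpECs and at 42.2, 37.5 and 43.9 FPKM in bmECs, with a log2 fold change of 0.30 ± 0.09 (SE, limma adjusted p = 0.0506). Nfkbia was at 208.6, 174.5 and 216.6 FPKM in mpECs and at 306.2, 268.0 and 227.1 FPKM in bmECs, with a log2 fold change of 0.41 ± 0.13 (SE, limma adjusted p = 0.0570). In all, 4 of the 10 genes did not overlap between the groups, beside 41.3% of all genes tested. Nfkb1 passed without mpEC replicate 2 (adjusted p = 0.0498) or without bmEC replicate 2 (adjusted p = 0.0478), and Nfkbia passed with replicate as a block (adjusted p = 0.0415) and without bmEC replicate 3 (adjusted p = 0.0276). With a filter at 5 FPKM, which Bcl3 did not pass, both were called (adjusted p = 0.0404 and 0.0441), and with limma-voom neither was, at log2 fold changes of 0.12 for Nfkb1 (adjusted p = 0.426) and 0.21 for Nfkbia (adjusted p = 0.160).

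The 4 other subunit genes overlapped between bmECs and mpECs. Rela (chr19:5637483-5648130, plus strand), whose product carries the transactivation domain of the classical dimer, was at 12.3, 16.5 and 15.6 FPKM in mpECs and at 16.6, 15.3 and 18.2 FPKM in bmECs (log2 fold change 0.17, 95% CI -0.12 to 0.46). Nfkb2 (chr19:46304320-46312385, plus strand) and Relb (chr7:19606217-19629438, minus strand), which encode the dimer of the non-canonical branch of the pathway, had log2 fold changes of 0.27 (95% CI -0.12 to 0.66) and 0.09 (95% CI -0.25 to 0.42). Rel (chr11:23736847-23770970, minus strand) was at 2.18 to 4.05 FPKM in mpECs and 1.82 to 2.91 FPKM in bmECs. These intervals leave room for changes of either sign in each of the 4 genes. Exons on the opposite strand cover 18.1% of the exon bases of Nfkb2 and 6.51% of those of Bcl3, and the strand setting of the counting was not stated.

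Nfkbiz and Tnfaip3 differed between bmEC libraries more than between the groups. Nfkbiz (chr16:55811375-55838899, minus strand), which encodes the inducible nuclear protein IκBζ, was at 7.55, 5.55 and 8.50 FPKM in mpECs and at 13.5, 10.9 and 4.77 FPKM in bmECs. Tnfaip3 (chr10:19000910-19015657, minus strand), which encodes a ubiquitin-editing enzyme that shuts off signalling upstream of the IκB kinase, was at 3.11, 2.54 and 3.66 FPKM in mpECs and at 3.31, 2.97 and 1.46 FPKM in bmECs. In both genes bmEC replicate 3 was the lowest of all 6 libraries, and it was also the lowest bmEC library for Nfkbia. The summed level of 12 immediate early genes, which can rise during tissue dissociation, was 3228 and 3865 FPKM in bmEC replicates 1 and 2, 1182 FPKM in replicate 3 and 1038 to 1502 FPKM in mpECs. Its part in the levels of these genes was not tested. Without bmEC replicate 3 the members called were 4, Bcl3, Nfkbie, Nfkbia and Nfkbiz, with Nfkbiz at a log2 fold change of 0.70 (adjusted p = 0.0404), and Tnfaip3 turned from -0.23 to 0.02. The 6 pan-leukocyte markers summed to 435.3 to 568.2 FPKM in bmECs and 613.4 to 947.6 FPKM in mpECs, lower for 6 of 6 with 1 called. Of 5 erythroid and 4 megakaryocyte markers all were higher in bmECs with 0 called by limma (1 and 0 at an unadjusted p under 0.05). The 3 osteoclast markers tested fell, as did 2 of 4 osteoblast markers tested. All 7 neutrophil markers were lower with 0 called by limma and 4 at an unadjusted p under 0.05. Of 6 macrophage and 6 B cell markers, 5 each were lower, with 1 each called. Erythroid markers summed to 38780 to 55580 FPKM in bmECs and 25650 to 48070 FPKM in mpECs. Neutrophil markers summed to 9430 to 13840 FPKM in bmECs and 11600 to 27730 FPKM in mpECs. Of 9 EC markers 3 rose and 3 fell, with sums of 1128 to 1476 FPKM in mpECs and 1357 to 1433 FPKM in bmECs. The part of these cells in the levels of Nfkbie and Bcl3 was not tested.

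**Figure D2:**
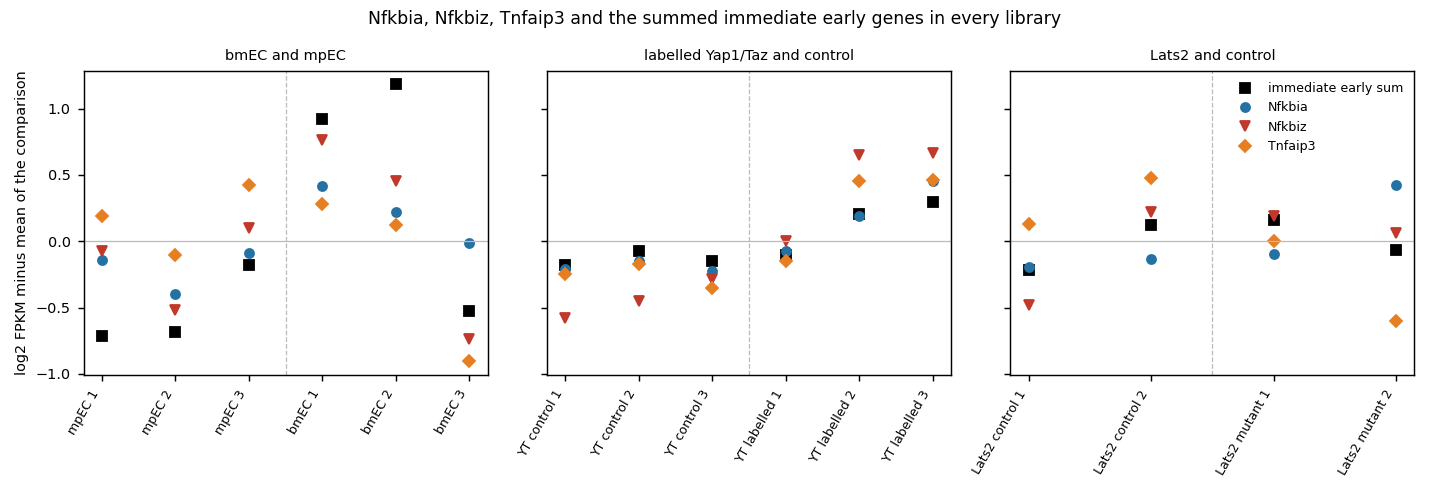
Log2 FPKM minus the mean of the comparison (y axis) for Nfkbia, Nfkbiz, Tnfaip3 and the sum of 12 immediate early genes in each library, with the 3 comparisons in separate panels, a dashed line between the groups, and YT for the Yap1/Taz set. bmEC replicate 3 lies below the other bmEC libraries for all 4 quantities, and so does replicate 1 below the other libraries labelled Yap1/Taz iΔEC.

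The comparison of the libraries labelled Yap1/Taz iΔEC with their controls asks what loss of YAP1 and TAZ in ECs changes, with the limit that the targeted transcripts were not lower in the labelled libraries. In these libraries Nfkbiz and Bcl3 rose, whose products are nuclear proteins of the IκB type. Of the 10 genes, 9 had a log2 fold change above 0, with a median of 0.27 beside -0.0047 over all 11320 genes tested. Over all genes, 1.31% had an adjusted p under 0.05 (0.883% higher and 0.424% lower), against 2 of the 10. The split over all genes was 100 higher and 48 lower, and 207 higher and 154 lower with limma-voom on recovered reads, which called the same 2 members.

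Nfkbiz was at 37.1, 40.7 and 45.7 FPKM in controls and at 55.6, 87.0 and 88.1 FPKM in the libraries labelled Yap1/Taz iΔEC. The groups did not overlap, and replicate 1 of the labelled libraries stood nearer to the controls than to the other labelled libraries. The log2 fold change was 0.86 ± 0.17 (SE, limma adjusted p = 0.0451). Bcl3 was at 8.73, 11.6 and 10.5 FPKM in controls and at 15.9, 18.6 and 19.9 FPKM in the labelled libraries, with a log2 fold change of 0.77 ± 0.13 (SE, limma adjusted p = 0.0347). Both calls lie close to the threshold. Nfkbiz lost its call when any single library other than labelled replicate 1 was left out (adjusted p = 0.0817, 0.109 and 0.0876 without control replicates 1, 2 and 3, and 0.216 and 0.174 without labelled replicates 2 and 3), without the filter on low values (0.122) and without the mean-variance trend (0.0838). Bcl3 lost it without control replicate 2 (0.0634) or 3 (0.0876), labelled replicate 2 (0.184) or 3 (0.160), the filter (0.0848) or the trend (0.0681).

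Tnfaip3 and Nfkbia had a like arrangement of libraries. Tnfaip3 was at 47.1, 49.6 and 43.6 FPKM in controls and at 50.3, 76.5 and 76.8 FPKM in the labelled libraries (log2 fold change 0.50 ± 0.16, SE, adjusted p = 0.131). Nfkbia was at 166.9, 174.0 and 164.7 FPKM in controls and at 183.3, 220.1 and 263.3 FPKM in the labelled libraries (log2 fold change 0.38 ± 0.13, SE, adjusted p = 0.164). Labelled replicate 1 was the lowest of its group in both genes, yet above all controls. Without that replicate both passed, Tnfaip3 with a log2 fold change of 0.70 (adjusted p = 0.0138) and Nfkbia with 0.51 (adjusted p = 0.0453), and 4 members were called. The immediate early genes summed to 2796 FPKM in labelled replicate 1, to 3452 and 3671 FPKM in labelled replicates 2 and 3, and to 2653 to 2848 FPKM in controls. Of these 12 genes, 9 were higher in the labelled libraries, with 1 called, and 3 were lower. Fos was at 547.9, 563.5 and 561.7 FPKM in labelled replicates 1, 2 and 3 and at 597.6 to 768.2 FPKM in controls. Labelled replicate 1 also had the highest neutrophil marker sum of its group (3820 FPKM, against 1735 and 1631 FPKM, and 2057 to 2700 FPKM in controls). Its erythroid sum was the highest too (5750 FPKM, against 3868 and 4311 FPKM, and 3990 to 4702 FPKM in controls). Its EC marker sum was the lowest of the group (583.0 FPKM, against 663.7 and 691.4 FPKM). The part of these sums was not tested.

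Among the subunits, the differences were smaller. Nfkb1 was at 60.9, 57.4 and 58.2 FPKM in controls and at 62.3, 71.4 and 71.8 FPKM in the labelled libraries (log2 fold change 0.21, adjusted p = 0.275). Rela was at 29.7, 28.9 and 28.0 FPKM in controls and at 31.4, 35.7 and 36.8 FPKM in the labelled libraries (log2 fold change 0.25, adjusted p = 0.211). Both were separated by group, as was Nfkb2 with 31.2 to 34.0 and 34.1 to 36.4 FPKM, and neither Rel, Relb nor Nfkbie was. In all, 7 of the 10 genes did not overlap between the groups, beside 23.6% of all genes tested, and 6 of them had an unadjusted p under 0.05, as did 2023 of the 11320 genes tested. The 9 EC markers moved the same way, since all 9 were higher in the labelled libraries with none called and 7 at an unadjusted p under 0.05 (sums of 583.0 to 691.4 FPKM against 495.5 to 530.9 FPKM in controls). B cell markers summed to 211.9 to 217.4 FPKM against 252.5 to 303.6 FPKM, and pan-leukocyte markers overlapped. Of 4 osteoblast markers tested, 3 were lower, with Col1a1 and Bglap called, and 1 was higher. The osteoblast list summed to 8.58 to 17.39 FPKM in the labelled libraries and 27.65 to 34.57 FPKM in controls. Of 4 megakaryocyte markers 2 were higher, with Ppbp called, and 2 were lower. The part of these markers in the members' values was not tested.

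**Figure D3:**
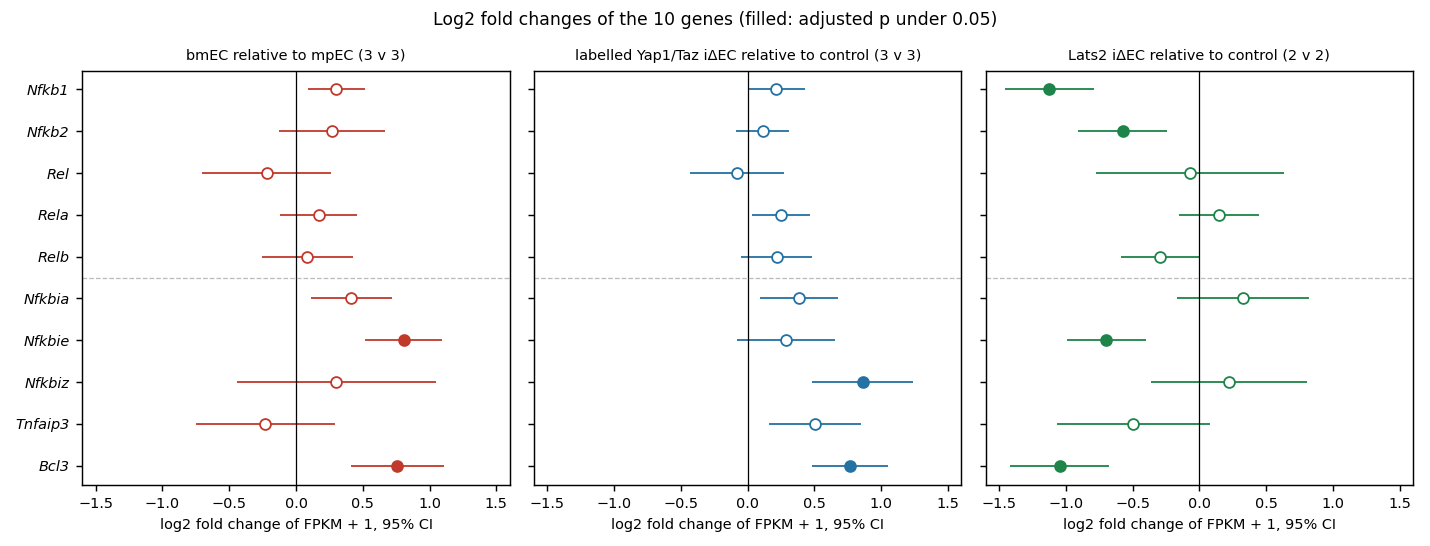
Log2 fold change of FPKM + 1 (x axis) with its 95% confidence interval for the 10 genes in the 3 comparisons, subunits above and inhibitors below the dashed line; filled points had an adjusted p under 0.05. Bcl3 is filled in all 3 panels, at 0.76, 0.77 and -1.05.

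The comparison of Lats2 iΔEC with control ECs asks what changes when a kinase that restrains YAP1 and TAZ is targeted. In the Lats2 iΔEC libraries, 4 members fell, the subunit genes Nfkb1 and Nfkb2, the inhibitor gene Nfkbie, and Bcl3, and none rose. The share over all 12451 genes tested was 21.8% (11.8% higher and 9.98% lower). Log2 fold changes were below 0 for 7 of the 10 genes, with a median of -0.40 beside -0.0031 over all genes. The split over all genes was 1468 higher and 1243 lower, and 1276 higher and 2048 lower with limma-voom on recovered reads, which called the same 4 members.

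Nfkb1 was at 62.5 and 53.1 FPKM in controls and at 26.5 and 25.3 FPKM in Lats2 iΔEC libraries. This 2.23-fold lower mean was accompanied by a log2 fold change of -1.12 ± 0.13 (SE, limma adjusted p = 0.0105). Bcl3 was at 39.0 and 47.4 FPKM in controls and at 21.3 and 19.3 FPKM in Lats2 iΔEC libraries, with a log2 fold change of -1.05 ± 0.15 (SE, limma adjusted p = 0.0133). In both genes the gap between the groups was wider than the gap between replicates.

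Nfkbie was at 34.5 and 35.9 FPKM in controls and at 20.6 and 22.1 FPKM in Lats2 iΔEC libraries, with a log2 fold change of -0.70 ± 0.12 (SE, limma adjusted p = 0.0186). Nfkb2 was at 37.0 and 41.9 FPKM in controls and at 24.7 and 27.7 FPKM in Lats2 iΔEC libraries, with a log2 fold change of -0.58 ± 0.13 (SE, limma adjusted p = 0.0364). The calls depend on having both controls. Without control replicate 1 or control replicate 2 no gene of the 12463 or 12510 tested passed, although 2724 and 2878 had an unadjusted p under 0.05, and the log2 fold changes were then -1.01 and -1.24 for Nfkb1 and -1.18 and -0.91 for Bcl3 (adjusted p from 0.113 to 0.132). Bcl3 and Nfkb2 also missed the threshold without Lats2 iΔEC replicate 2 (adjusted p = 0.0579 and 0.0715), and Nfkb2 without Lats2 iΔEC replicate 1 (0.0802), without the filter on low values (0.0604) and without the mean-variance trend (0.0626).

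Rela did not share this direction. It was at 59.8 and 66.9 FPKM in controls and at 70.9 and 69.2 FPKM in Lats2 iΔEC libraries, with a log2 fold change of 0.15 (95% CI -0.16 to 0.45, adjusted p = 0.414). Relb was at 19.6 and 20.4 FPKM in controls and at 16.2 and 15.9 FPKM in Lats2 iΔEC libraries (log2 fold change -0.30, adjusted p = 0.128). Of the remaining inhibitors, Nfkbia was higher and Tnfaip3 lower in both Lats2 iΔEC libraries than in both controls, without a call. Nfkbia was at 165.6 and 173.0 FPKM in controls and at 178.1 and 254.6 FPKM in Lats2 iΔEC libraries (log2 fold change 0.33, adjusted p = 0.272), and it passed only without Lats2 iΔEC replicate 1, the lower of that pair (0.59, adjusted p = 0.0395). Tnfaip3 was at 5.17 and 6.58 FPKM in controls and 4.73 and 3.11 FPKM in Lats2 iΔEC libraries. Nfkbiz (5.25 and 8.51 against 8.34 and 7.65 FPKM) and Rel (0.933 and 1.80 against 1.14 and 1.29 FPKM) overlapped. With 2 libraries a group, 68.2% of all genes tested did not overlap (34% higher and 34.2% lower), so the 8 members that did not overlap, 2 higher and 6 lower, are no more than a description.

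Most blood cell markers were also lower in Lats2 iΔEC libraries. The 6 pan-leukocyte markers, 6 of 6 lower with 2 called, summed to 223.9 and 183.3 FPKM in controls and to 131.0 and 85.4 FPKM in Lats2 iΔEC libraries. Ptprc was at 6.39 and 5.57 FPKM in controls and at 2.80 and 0.795 FPKM in Lats2 iΔEC libraries. Of 7 neutrophil markers 5 fell (sums of 1918 to 2873 against 702.9 to 843.1 FPKM). Of 6 B cell markers 5 fell and 1 was higher without a call. Of 5 erythroid markers all were lower with 0 called by limma and 4 at an unadjusted p under 0.05. All 4 megakaryocyte markers were lower, with 1 called. Of 5 macrophage markers tested, 4 were lower and 1 higher, with 0 called by limma and 2 at an unadjusted p under 0.05. Of 3 osteoclast markers tested, 2 were higher, with Ctsk called, and 1 was lower. The EC markers summed to 2381 to 2522 FPKM in controls and to 2418 to 2480 FPKM in Lats2 iΔEC libraries, but single markers went both ways, with Pecam1 higher (log2 fold change 0.85) and Kdr (-0.95) and Tek (-1.35) lower at an adjusted p under 0.05. Leukocytes express NF-κB subunits too, and the part of these cells in the lower levels of Nfkb1, Nfkb2, Nfkbie and Bcl3 was not tested.

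The make-up of the subunit transcripts within a library, which does not depend on how libraries are scaled, was set out after these values were seen. Nfkb1 held 55.3% to 61.7% of the summed FPKM of the 5 subunit genes in mpECs and bmECs and 42.5% to 44.7% in the Yap1/Taz set. In the Lats2 controls it held 34.8% and 28.9%, and in Lats2 iΔEC libraries 19.0% and 18.2%. Rela held 33.3% and 36.3% in Lats2 controls and 50.9% and 49.7% in Lats2 iΔEC libraries. That made it the leading subunit gene in both Lats2 iΔEC libraries and in control replicate 2, while Nfkb1 led in control replicate 1. The FPKM of Rela itself was not called changed. The summed FPKM of the 5 subunit genes was 179.8 and 184.1 in Lats2 controls and 139.4 and 139.4 in Lats2 iΔEC libraries.

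The ratio of Nfkb1 to Rela FPKM was 2.03 to 2.60 in mpECs, 2.41 to 2.53 in bmECs, 1.98 to 2.08 in the Yap1/Taz controls and 1.95 to 2.00 in the libraries labelled Yap1/Taz iΔEC. It was 1.05 and 0.794 in the Lats2 controls and 0.374 and 0.366 in Lats2 iΔEC libraries. An exact two-sided permutation test of the log2 ratio gave p = 0.4 for bmECs against mpECs and p = 0.3 for the Yap1/Taz set, where 0.1 is the smallest p that 3 against 3 libraries allow, and p = 0.333 for Lats2, the smallest that 2 against 2 allow. The ratio of Nfkbia to Nfkbie, 2 inhibitors of the same cytoplasmic dimers, was 4.80 and 4.82 in the Lats2 controls and 8.66 and 11.5 in Lats2 iΔEC libraries (exact permutation p = 0.333). In bmECs this ratio was 6.84 to 9.73 and in mpECs 8.22 to 13.8 (exact permutation p = 0.3).

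**Figure D4:**
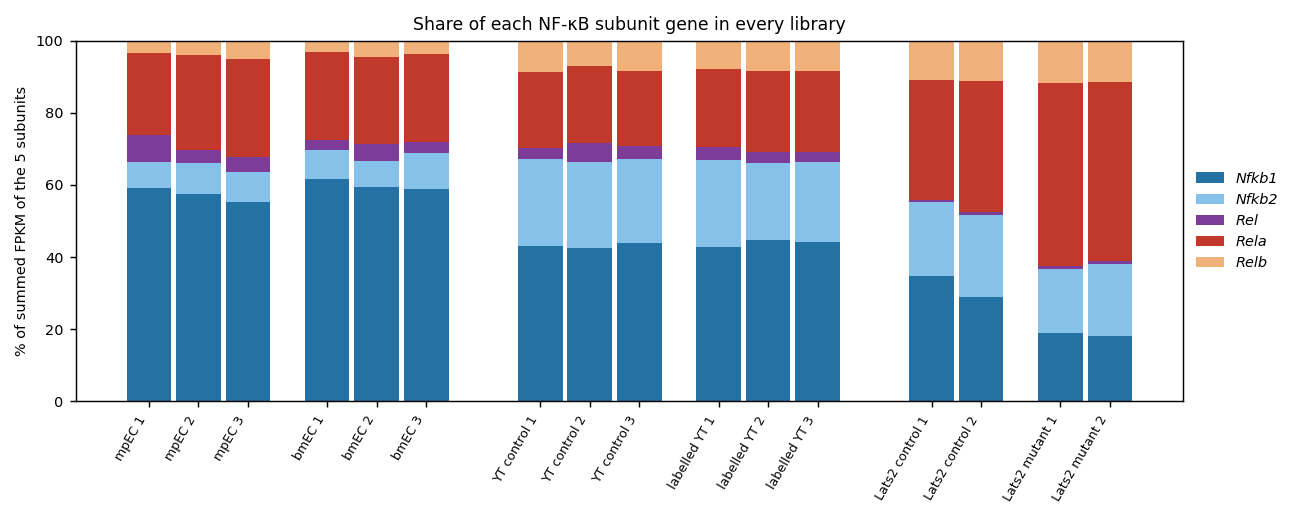
Share in percent (y axis) of each of the 5 subunit genes in their summed FPKM, with a stacked bar for each of the 16 libraries; YT stands for the Yap1/Taz set. The Nfkb1 share is 19.0% and 18.2% in the 2 Lats2 mutant bars and 34.8% and 28.9% in their controls.

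Over all 16 libraries, each centred on the mean of its comparison, the members formed groups that are given as a description, since libraries of a comparison share their handling and depth. Nfkbie and Bcl3 were the most alike pair (Pearson r = 0.828, n = 16 libraries), followed by Nfkb1 and Nfkb2 (r = 0.807) and Nfkb1 and Bcl3 (r = 0.806). When each library was instead centred on the mean of its own group, which leaves only the spread between replicates, these values were 0.278, 0.390 and 0.166. Nfkbiz and Tnfaip3 went the other way, from 0.702 to 0.897. So did other pairs, among them Nfkb2 and Rela (0.397 to 0.781) and Rela and Nfkbie (0.488 to 0.690). Rel was the odd member, with r = -0.509 to Rela.

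Among 9070 genes that averaged 1 FPKM or more in every comparison, those most alike to Bcl3 were Zfp521 (r = 0.954), Ralgds (0.954) and Dock1 (0.952). Nfkb1 was closest to Slc39a8 (0.976), Nrcam (0.971) and Galnt18 (0.970), Nfkb2 to Pear1 (0.902), Jak3 (0.899) and Nod1 (0.895), and Nfkbie to Grrp1 (0.949), Rab20 (0.936) and Mtmr12 (0.935). Rela was closest to Robo4 (0.921), Esam (0.920) and Marcksl1 (0.895), of which Esam stands on the EC marker list, and Relb to Dusp6 (0.856), Cdc42ep2 (0.856) and Zmynd11 (0.850). Nfkbia was closest to Pcdhb17 (0.911), Ier3 (0.877) and Prrg2 (0.865), Nfkbiz to Stam (0.884), Gem (0.867) and Cxcl1 (0.862), and Tnfaip3 to Cd83 (0.877), Nr4a2 (0.858) and Ptgs2 (0.855). Rel had the weakest likeness, with Atad5 (0.721), Mthfd2 (0.698) and Usp7 (0.671). Of these 30 genes, Ier3, Cxcl1, Cd83 and Ptgs2 stand on the list of NF-κB-responsive genes used next.

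Other genes of the pathway were counted by list. Of 22 genes known to respond to NF-κB, 7 rose and 3 fell in bmECs, among them the leukocyte adhesion genes Sele (44.4 to 69.7 FPKM in mpECs, 218.7 to 239.6 FPKM in bmECs; log2 fold change 2.06), Vcam1 (1.82) and Selp (1.37), while the neutrophil chemokine gene Cxcl2 fell by 1.28 on the log2 scale. In the libraries labelled Yap1/Taz iΔEC 4 rose and none fell, and Cxcl1 (1.78), Gadd45b (0.90) and Cxcl2 (0.61) had the largest changes at 5 FPKM or more. In Lats2 iΔEC libraries 2 of 20 tested rose, the chemokine genes Ccl2 (3.21) and Cx3cl1 (1.33), and 7 fell, with Sele at -2.84, Vcam1 at -2.83 and Cxcl10 at -2.68. The shares over all genes tested were 23.5%, 1.31% and 21.8% in these 3 comparisons.

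Of the receptors, adaptors and kinases upstream, 5 of 29 tested rose and 3 fell in bmECs, with the interleukin receptor gene Il1r1 (log2 fold change 0.91) and the kinase gene Irak4 (0.68) higher and the receptor gene Cd40 (-2.45) and the adaptor gene Traf5 (-1.09) lower. Of 11 further inhibitors, 2 rose in bmECs, Tnip1 (0.76), whose product binds that of Tnfaip3, and Tax1bp1, named after its values were seen. In the libraries labelled Yap1/Taz iΔEC, limma called 0 of 32 upstream genes and 0 of 12 further inhibitors, 10 of these 44 had an unadjusted p under 0.05 (2023 of 11320 over all genes), and limma-voom called 1, Tnfrsf1b, likewise named after its values were seen. In Lats2 iΔEC libraries 1 of 31 upstream genes rose, Cd40 (1.14), and 5 fell, with Birc2 (-1.51), Tbk1 (-0.86) and Irak4 (-0.68) changed most. Of 11 further inhibitors there, 1 fell. The counts for upstream genes, 8 of 29 in bmECs and 6 of 31 in Lats2 iΔEC libraries, are near the shares over all genes of 23.5% and 21.8%.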

How the data were processed

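ECs sorted from bone were profiled with a stranded total RNA kit and paired-end sequencing. The authors mapped reads to GRCm38 with TopHat and counted them per gene with HTSeq 0.6.1, and the values they deposited are FPKM, made from counts by a step not given in the sources used here. Columns of every library were assigned by their labels. From the deposited FPKM, log2(FPKM + 1) was tested with limma 3.58.1 (R 4.3.3; group term, empirical Bayes with a mean-variance trend, two-sided), each comparison alone, for genes that averaged 1 FPKM or more, and p-values were adjusted by the Benjamini-Hochberg method over all genes tested. A gene was called, and said to rise or fall, at an adjusted p under 0.05. Fold changes on this scale understate changes of low genes.

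Reads were recovered as FPKM times the exon length of GENCODE M21 and a factor per library. Of values up to 20 reads, 62.4% to 70.0% were whole to within 0.02 reads (4% by chance). Replicates are separate samples by their labels, called biological replicates in the study, and p-values measure the spread between them. Alternatives were another pseudocount, other filters, quantile and median-of-ratios scaling, no trend, replicate as a block, limma-voom on recovered reads, and leaving out each library. The fit was tested on simulated data. Tables and plots used Python 3.11.15.

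The members and lists were chosen with earlier results of these data known. The named genes are all members, the targeted genes, for each pathway list (the upstream genes and further inhibitors together, and the responsive genes), comparison and direction the 3 called genes with the largest change that averaged 5 FPKM or more, and for each member the 3 most alike genes.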

Additional observations from a re-analysis of the deposited data

How the results depend on the processing

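Of the alternatives tried on the 30 log2 fold changes of members, 352 gave the same direction and side of the threshold, 26 lost a call, 10 gained one and 6 turned in sign. Those 6 were never called, namely Relb in bmECs with limma-voom (-0.040) and, leaving out 1 library at a time, Relb (-0.021 to 0.18) and Tnfaip3 (-0.38 to 0.021) in bmECs, Rel in the Yap1/Taz set (-0.17 to 0.091), and Nfkbiz (-0.081 to 0.52) and Rel (-0.34 to 0.19) in the Lats2 set. Limma-voom moved the median of all genes by -0.19 in bmECs and -0.14 in the Lats2 set, so values under it are to be read against these shifts.

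In the Yap1/Taz set, 0 members were called without the filter (6 at an unadjusted p under 0.05) and 0 without the trend (5 at an unadjusted p under 0.05), responsive genes called were 0 and 1 under these settings, and limma-voom called 1 other pathway gene. Leaving out 1 library gave 0 to 4 members, 0 to 3 other pathway genes and 0 to 8 responsive genes. In bmECs it gave 2 to 4 members. In the Lats2 set it gave 0 to 4 members, 0 to 7 other pathway genes and 0 to 8 responsive genes, where a lone library of a group is assumed to vary like the other group, and other pathway genes called were 3 without the filter, 4 without the trend and 16 with limma-voom, and responsive genes 5 without the filter. Over all genes, calls in the Yap1/Taz set were 148, against 1 without the filter, 17 without the trend, 361 with limma-voom and 1 to 293 without 1 library, and in the Lats2 set 2711, against 1389 without the filter and 0 to 2701 without 1 library. The cause was not tested.

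Same-numbered replicates were not treated as pairs, since their deviations correlated by 0.307, 0.088 and 0.102 (bmEC and mpEC), -0.175, -0.123 and -0.155 (Yap1/Taz) and 0.065 (Lats2). With the replicate block, members called were 3, 2 and 4, responsive genes in the Yap1/Taz set 2, and all genes in that set 45. Depth limits Rel and Bcl3 most, with as few as 32 and 59 recovered reads in a library.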
